A study of Mus musculus with 4 samples.

Results

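The transcription factor genes *Nkx2-2*, *Nkx6-1*, *Nkx6-2*, *Olig1*, *Olig2* and *Foxa2*, which pattern the ventral neural tube, were examined in single cells of 4 neural stem cell (NSC) lines. The 6 genes were taken by name from the 28068 gene names listed in the expression tables. All lines came from epiblast stem cells (EpiSCs) of the 129/Sv mouse strain and were grown with EGF and FGF2, each at 10 ng/ml. XN4 and XN1 were also cultured in 10 µM XAV939, a Wnt antagonist, CN4 in 2 µM CHIR99021, a Wnt agonist, and KN1 in neither. By the study's methods the XAV939 of XN4 and of XN1 came from different suppliers, and that used for XN1 formed crystals in the medium. Each line is 1 established line and contributed 1 single-cell RNA library, so differences between lines, between libraries and between culture conditions cannot be told apart, and no test between lines was possible. The tables held 45325 cells in all, with 8741 of XN4, 14452 of XN1, 3975 of KN1 and 18157 of CN4.

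In the vertebrate neural tube, Sonic hedgehog (Shh) secreted from the notochord and floor plate forms a gradient that sets up ventral progenitor domains. Foxa2 marks the floor plate and activates *Shh* there, Nkx2-2 marks the domain next to it, and Olig2 marks the motor neuron progenitors. Nkx6-1 and Nkx6-2 are homeodomain repressors of the ventral neural tube, while Irx3, Pax6, Dbx1 and Dbx2 lie more dorsally. Olig1, Olig2 and Nkx2-2 act later in oligodendrocyte precursors, where Sox10 is also made. Foxa2 has a separate role in endoderm.

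Members of this group lie on 4 chromosomes of the GRCm38 build (GENCODE M21 annotation). *Olig2* (chr16:91225457-91228677) and *Olig1* (chr16:91269772-91271933) are neighbours on the plus strand, 41094 bases apart. *Nkx2-2* (chr2:147177546-147194243) and *Foxa2* (chr2:148042877-148046969) are both on the minus strand of chromosome 2, with 848633 bases between them. *Nkx6-1* (chr5:101658139-101664996) and *Nkx6-2* (chr7:139579376-139582797) are on the minus strand of chromosomes 5 and 7. *Nkx2-2* overlaps the oppositely oriented *Nkx2-2os* and *6430503K07Rik*, *Nkx6-2* overlaps *Inpp5a*, and *Olig1* overlaps *Gm15966*. Use of strand in the counting was not stated, so reads of these overlapping genes cannot be told apart. The longest run of bases shared between exons was 17 for *Olig1* with *Olig2* and for *Nkx6-1* with *Nkx6-2*, and 15 for *Nkx2-2* with *Nkx6-1*. Other pairs of members were not compared.

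*Olig2*, *Foxa2* and *Nkx2-2* were chosen because *Olig2* was captured widely, *Foxa2* mainly in CN4 and *Nkx2-2* in a minority of cells. Sequences upstream of these genes are shown from RefSeq (GRCm38.p6). They read 5′ to 3′ along the gene's strand and leave out annotated exons, and capitals mark a CCAAT box on either strand (CCAAT or ATTGG).
Olig2 (chr16:91225300-91225456, plus strand): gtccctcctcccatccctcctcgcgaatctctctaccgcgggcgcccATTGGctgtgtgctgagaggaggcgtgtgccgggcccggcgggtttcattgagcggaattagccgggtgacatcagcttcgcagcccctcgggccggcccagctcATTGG
Foxa2 (chr2:148046970-148047219, minus strand): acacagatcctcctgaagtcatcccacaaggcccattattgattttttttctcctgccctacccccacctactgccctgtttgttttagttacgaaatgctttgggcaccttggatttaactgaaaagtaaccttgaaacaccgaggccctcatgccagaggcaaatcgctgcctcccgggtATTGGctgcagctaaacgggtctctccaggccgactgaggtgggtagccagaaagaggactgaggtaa
Nkx2-2 (chr2:147186456-147186652, minus strand): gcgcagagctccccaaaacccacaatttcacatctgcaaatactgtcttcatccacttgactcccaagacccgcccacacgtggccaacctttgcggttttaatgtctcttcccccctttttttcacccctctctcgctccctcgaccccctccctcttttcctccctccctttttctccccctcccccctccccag

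The *Olig2* stretch held 2 CCAAT boxes, that of *Foxa2* held 1 and that of *Nkx2-2* held none. For *Foxa2*, which has 3 listed starts, the stretch before the outermost start is shown, and those before the other starts held no CCAAT box. Over 32851 promoters of 250 bases, 33.8% held CCAAT on either strand, while the *Olig2* and *Nkx2-2* stretches are shorter, at 157 and 197 bases. The letters GACCACCCA, a consensus bound by the Gli factors that carry the hedgehog signal, were found on neither strand of the 3 stretches, and 0.225% of the promoters held them. The *Nkx2-2* stretch lies in an intron of longer transcripts of the gene. Like that of *Olig2*, it ends at an annotated exon before the listed start, so the bases next to that start were not searched. Of the 6 members, 5 had an entry, and *Olig1* was not matched.

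A gene with 1 read or more in a cell counted as captured there, and the capture fraction is the share of such cells. Intervals are 95% Clopper-Pearson intervals for shares and exact Poisson intervals for counts. Both describe counting error alone, because a molecule can give several reads and cells of 1 library are not replicates. For cells with 2 genes, the Poisson interval is wider than that error where 1 of the genes is captured in most cells. Median depth per cell over all reads was 12615 for XN4, 9173 for CN4 and 5981.5 for XN1. In the normalized tables, which leave out ribosomal protein and mitochondrial reads, it was 7796 for XN4, 6572 for CN4, 5862 for KN1 and 4637 for XN1. KN1 cells held a median of 833 genes there, against 2257 to 2824 in the other lines. KN1 values came only from the normalized table, which lists no gene found in fewer than 7 cells, and *Nkx6-2* was not listed. From 37 to 320 cell barcodes were shared by any pair of libraries.

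The neural label was checked first. *Sox2*, a neural progenitor factor, was captured in 63.5% of XN1, 13.9% of KN1 and 85.9% of CN4 cells, against 0.561% in XN4. *Fabp7*, a radial glia gene, was captured in 85.5%, 29.0% and 98.5% of the same 3 lines and in no XN4 cell. The mesenchymal collagen *Col3a1* was captured in 97.7% of XN4 cells and in 0.228% to 1.23% elsewhere. At equal depth 8 of 8 mesenchyme genes reached 1% of XN4 cells, against 3 of 8 in XN1 and 2 of 8 in CN4, where *Col1a2* (16.5% of XN1 and 4.73% of XN4 cells) and *Prrx1* (20.9% of CN4 and 70.9% of XN4 cells) were the most widely captured. Of 8 neural progenitor genes, 3 reached 1% in XN4, namely *Vim* (72.8%), which other cell types also make, *Msi1* (7.13%) and *Nes* (3.37%), against 7 in XN1 and 8 in CN4. The library labelled XN4 thus had *Sox2*, *Fabp7*, *Sox3* and *Hes5* at or near 0, and each comparison with it carries that difference. None of the 7 endoderm genes reached 1% in any line.

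*Olig1* and *Olig2*, related basic helix-loop-helix factors, were the most widely captured members in XN1 and CN4. The capture fraction of *Olig1* was 89.1% in XN1 (88.6 to 89.6), 88.1% in CN4 (87.6 to 88.6) and 25.7% in KN1 (24.4 to 27.1). It was captured in 0 of 8741 XN4 cells. The limit used for a count of 0 was the share of 3 cells, here 0.0343%, and the upper end of the Clopper-Pearson interval was 0.0422%. At these depths, which differ between lines, XN1 and CN4 were close, KN1 lay between them and XN4, and XN4 held none. *Olig2* was captured in 5 XN4 cells, each with a single read, or 0.0572% (0.0186 to 0.133). Its capture fraction was 86.8% in XN1 (86.3 to 87.4), 86.0% in CN4 (85.4 to 86.5) and 27.2% in KN1 (25.8 to 28.6). For each of the 2 genes, the intervals of XN1 and CN4 were close and far from those of KN1 and XN4.

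Reads per captured cell describe the libraries and are no measure of level, since KN1 cells gave more reads for each gene they held. A captured XN1 cell held a median of 4 *Olig1* reads, a KN1 cell 5 and a CN4 cell 6. For *Olig2* the medians were 4, 6 and 6 reads. For *Nkx2-2* they were 1, 4 and 1 in XN1, KN1 and CN4, and for *Foxa2* 4 in KN1 and 1 in CN4. Pooled over the cells of the normalized tables, *Olig1* had 929 reads per 1000000 (RPM) in XN1, 892 in CN4 and 223 in KN1, and *Olig2* had 890, 896 and 310 RPM. These and the later RPM values were taken from the normalized tables, so that the totals leave out the same transcripts in each line.

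*Nkx2-2*, a homeodomain repressor, was captured in a minority of the cells in every line. It was found in 5 XN4 cells with a single read each, in 12.5% of XN1 (11.9 to 13.0), in 12.8% of CN4 (12.4 to 13.3) and in 75 KN1 cells, or 1.89% (1.49 to 2.36). The intervals of XN1 and CN4 overlapped at these unequal depths, and KN1 lay between them and XN4. A single read supported 76.6% of the captured XN1 cells and 68.7% of those in CN4, so capture of *Nkx2-2* depended on depth. Pooled levels were 30.9 RPM in XN1, 23.1 in CN4 and 12.7 in KN1. Its antisense partner *Nkx2-2os* was captured in 0.412% to 1.11% of the cells of the 4 lines. Cells with both genes came to 1.22 times the number that depth and the shares give in XN1 (0.806 to 1.78) and to 1.17 times in CN4 (0.795 to 1.66).

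*Foxa2*, the forkhead factor of the floor plate, was captured mainly in CN4. It was captured in 1022 CN4 cells, or 5.63% (5.30 to 5.97). KN1 held 19 such cells (0.478%; 0.288 to 0.745), XN1 held 16 (0.111%; 0.0633 to 0.180) and XN4 held 3 (0.0343%). The interval of CN4 lay above those of the other lines, and the interval of KN1 lay above that of XN1. In CN4, 59.0% of the captured cells had a single *Foxa2* read and the highest had 19. Pooled levels were 12.9 RPM in CN4 and 3.01 in KN1. *Foxa1*, its close relative, was found in 2 to 9 cells of each line that lists it.

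*Nkx6-1* showed a different distribution from the other members, with its highest capture in KN1. It was captured in 161 KN1 cells, or 4.05% (3.46 to 4.71), with a median of 4 reads and up to 26. XN4 and XN1 held 1 cell each and CN4 held 6, all with a single read. Its pooled level was 34.5 RPM in KN1. *Nkx6-2* was rare where it was listed, in 3 XN4 cells, 40 XN1 cells (0.277%; 0.198 to 0.377) and 31 CN4 cells (0.171%; 0.116 to 0.242). The intervals of XN1 and CN4 overlapped. The 3 XN4 cells held 10 *Nkx6-2* reads between them.

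**Figure D1:**
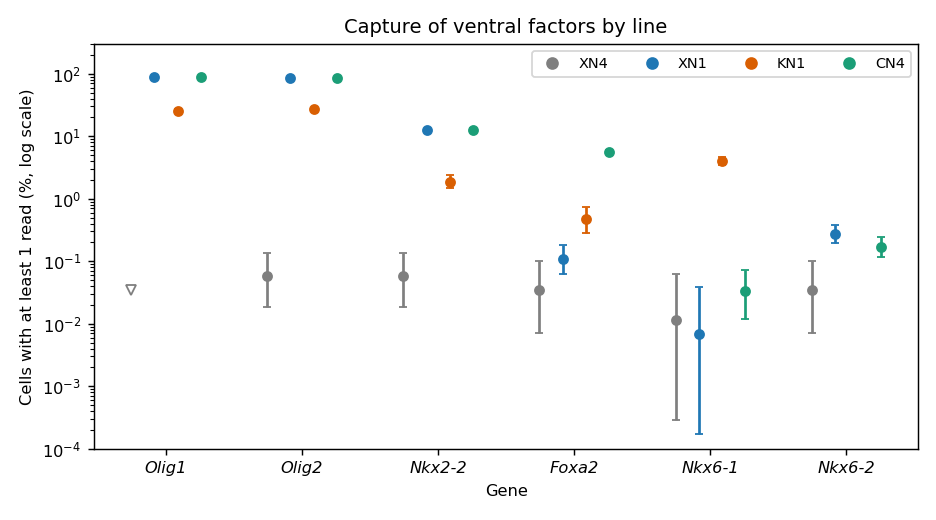
Share of cells with at least 1 read of each member (%, log axis) in XN4, XN1, KN1 and CN4, with 95% Clopper-Pearson intervals. An open triangle marks the share of 3 cells, the limit used for a count of 0. *Nkx6-2* was not listed in KN1. *Olig1* and *Olig2* stand near 90% in XN1 and CN4, *Foxa2* is highest in CN4 at 5.63% and *Nkx6-1* in KN1 at 4.05%.

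No cell type known to lack these genes was labelled within a line, so the share given by free RNA was not tested. The XN4 library, with 0 to 5 captured cells for each member, gives the level in cells nearly without *Sox2* and *Fabp7*, in a separate library. Capture rose with depth. Cells of each line were put into 5 classes of equal size by total reads. From the shallowest to the deepest class, *Olig1* capture went from 77.2% to 95.2% in XN1, from 15% to 42.0% in KN1 and from 76.7% to 95.2% in CN4. *Nkx2-2* went from 6.88% to 19.5% in XN1, from 1.13% to 3.14% in KN1 and from 7.96% to 18.0% in CN4, and *Foxa2* in CN4 from 2.01% to 10.7%. The deepest class of KN1 stayed below the shallowest class of XN1 for *Olig1*, and for *Nkx2-2* the same held. These classes are of total reads, and KN1 cells held fewer genes at equal reads, so the classes do not match the lines in genes detected.

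**Figure D2:**
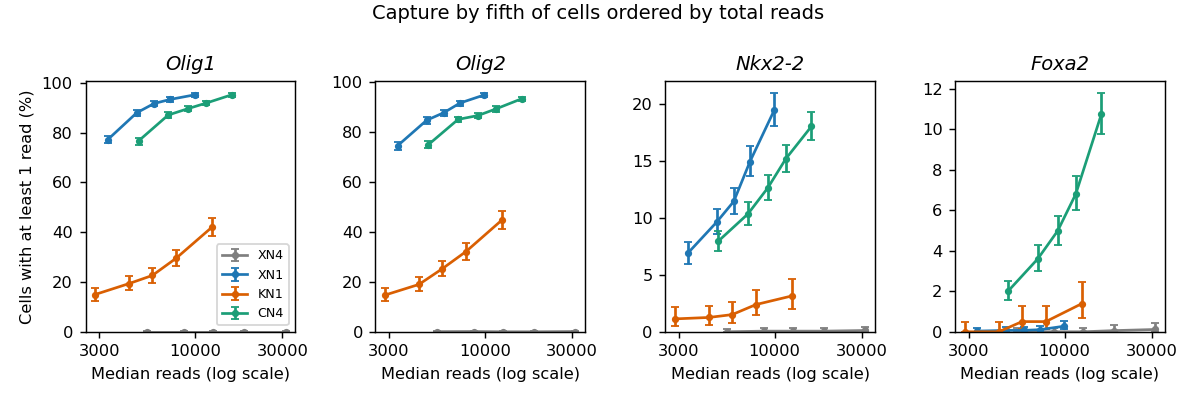
Capture fraction (%) of members in 5 depth classes of each line, against the median reads per cell of the class (log axis), with 95% Clopper-Pearson intervals as bars. The curves climb with depth, and KN1 stays at or below 44.8% for *Olig1* and *Olig2*.

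To compare lines at one depth, each cell was thinned to 3600 reads in the tables of all reads. A gene counted as apart at a 2-fold difference in capture, and was considered when captured in at least 1% of the cells of either line. *Olig1* was then captured in 82.3% of XN1 and 74.9% of CN4 cells, which is at least 2357-fold and at least 2144-fold above the limit that a count of 0 allows in XN4. *Olig2* was captured in 79.8% and 72.8%, and *Nkx2-2* in 7.67% and 5.99%, against 2 cells and 1 cell of XN4. At this equal depth the intervals of XN1 and CN4 did not overlap for any of the 3 genes, with *Olig1* at 81.7 to 83.0 and 74.3 to 75.5, and *Nkx2-2* at 7.21 to 8.15 and 5.64 to 6.35. The 3 members considered in XN1 against XN4 were all higher, as were the 4 considered in CN4 against XN4. They were considered only because XN1 or CN4 captured them, and 32.7% and 36.5% of all genes considered were 2-fold apart in the same comparisons.

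Between CN4 and XN1 the picture was narrower. Of 4 members considered, only *Foxa2*, considered through CN4 alone, was past 2-fold, with 2.76% of CN4 cells (487) against 6 XN1 cells, a 58.0-fold ratio. Among all genes considered, 16% were 2-fold apart. The log2 ratios of CN4 over XN1 were -0.14 for *Olig1*, -0.13 for *Olig2* and -0.36 for *Nkx2-2*, and the median over all genes was 0.06.

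KN1 was set beside the others from the normalized tables, first with 3200 reads per cell. *Olig1* was then captured in 84.8% of XN1, 22.3% of KN1 and 78.6% of CN4 cells, *Olig2* in 83.5%, 25.3% and 77.3%, and *Nkx2-2* in 8.37%, 1.62% and 5.98%. At these equal reads a KN1 cell held a median of 765 genes, against 1650 to 1846 in the other lines. Most genes were therefore captured less often in KN1. The median log2 ratio over all genes was -1.14 against XN4, -1.28 against XN1 and -1.33 against CN4, and 64.7%, 65.6% and 67% of the genes considered were 2-fold apart. The ratios of KN1 over XN1 of -1.93 for *Olig1*, -1.72 for *Olig2* and -2.37 for *Nkx2-2* are thus to be read beside that median.

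A second comparison thinned the other lines to 980 to 1100 reads, where the median number of genes per cell matched that of KN1. *Olig1* was then captured 2.53-fold more often in XN1 than in KN1 and 2.30-fold more often in CN4. For *Olig2* the ratios were 2.08 and 1.92, and for *Nkx2-2* they were 1.85 and 1.25. At equal genes, then, *Olig1* remained 2-fold apart in both comparisons, *Olig2* only against XN1, and *Nkx2-2* in neither. In pooled RPM of the normalized tables, XN1 was 4.16-fold above KN1 for *Olig1*, 2.87-fold for *Olig2* and 2.44-fold for *Nkx2-2*, and CN4 was 4.00-fold, 2.89-fold and 1.82-fold above it, so the side of the 2-fold line changed for *Olig2* against CN4 and for *Nkx2-2* against XN1. The shares of all genes 2-fold apart at equal genes, counted after seeing the gap, were 39.8% against XN4, 45.6% against XN1 and 39.4% against CN4. The median of all genes was then 0.15, 0.21 and 0.16 in log2 of KN1 over the other line.

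**Figure D3:**
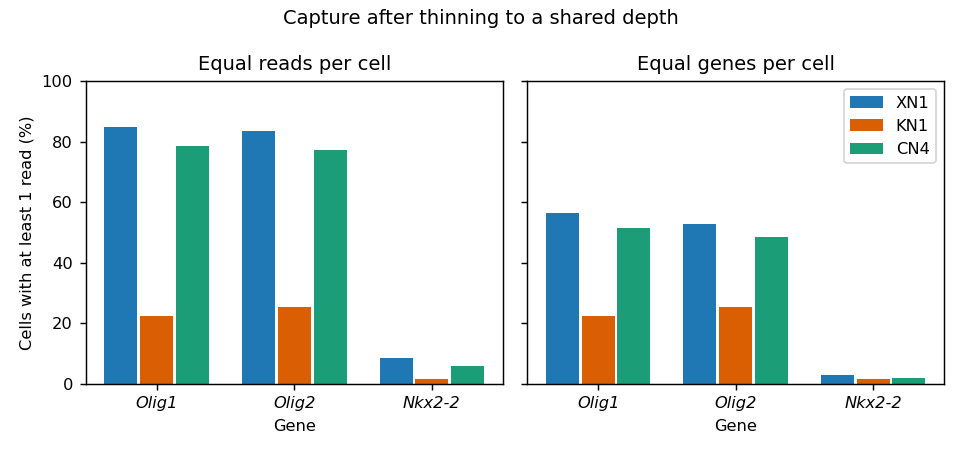
Capture fraction (%) of *Olig1*, *Olig2* and *Nkx2-2* in XN1, KN1 and CN4 after thinning to equal reads per cell (left) and to equal median genes per cell (right), with no error bars drawn. The *Olig1* bar of KN1 stays at 22.3%, while that of XN1 falls from 84.8% to 56.4% when genes per cell are matched.

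*Nkx6-1* was considered only through KN1, so its direction was given by the choice of genes. At 3200 reads it was captured in 3.24% of KN1 cells (110), in 1 XN1 cell and in 0 cells of XN4 and CN4, at least 36.6-fold and at least 34.1-fold above the limits in the latter lines. It was the only member captured more often in KN1 than in XN1 and CN4. *Foxa2* was captured in 0.383% of KN1 and 2.85% of CN4 cells at this depth, a 7.44-fold ratio, which was 2.65 at equal genes per cell, where CN4 fell to 1.02%.

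Most XN1 and CN4 cells held a pair of members. In XN1, 3.26% of the cells held no member, 15.8% held 1, 69.9% held 2 and 11% held 3, while 8 cells held 4. CN4 was similar, with 5.08%, 13.8%, 65.5% and 14.7%, and 0.969% of its cells held 4. In KN1, 53.1% held none, 35.5% held 1 and 10.4% held 2. In XN4, 99.8% held none and 17 cells held 1.

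Among genes of the hedgehog pathway, *Shh* itself was captured in 434 CN4 cells (2.39%), 10 XN1 cells and 2 XN4 cells, and was not listed in KN1. *Ptch1*, the Shh receptor and a target of the pathway, was captured in 7.55% of XN4, 26.2% of XN1, 15.9% of KN1 and 43.9% of CN4 cells. *Gli1*, another target, was captured in 2.09% of CN4 cells, 10 XN4 cells and 3 XN1 cells. CN4 thus held most of the cells with *Shh* and with *Gli1* among the lines that list them. Another ligand of the pathway, *Dhh*, went the other way, with 171 reads in XN1, 99 in CN4 and 2 in XN4. *Gli3*, the factor that becomes a repressor without the signal, was captured in 58.0%, 12.6%, 9.74% and 30.8% of XN4, XN1, KN1 and CN4 cells, and the transducer *Smo* in 56.1%, 40.0%, 19.4% and 58.4%. *Hhip*, an inhibitor that binds Shh and a target of the pathway, was captured in 5.22%, 0.256%, 1.31% and 6.85%. These shares are not at equal depth, and at equal genes per cell KN1 stood above XN1, with *Ptch1* in 14.6% of KN1, 6.92% of XN1 and 12.2% of CN4 cells, *Gli3* in 8.36%, 2.79% and 6.30%, and *Smo* in 17.6%, 11.6% and 13.6%.

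At equal depth, 10 of the 14 pathway genes were considered in CN4 against XN1. Of these, *Shh*, *Gli2*, *Hhip* and the co-receptor *Boc* were 2-fold higher in CN4, and the co-receptors *Cdon* and *Gas1* were 2-fold lower. The median log2 ratio of the 10 was 0.73, beside 0.06 over all genes. *Shh*, *Gli2* and *Hhip* were considered only through CN4 and could only be higher there, and the median of the 7 genes captured in at least 1% of both lines was 0.31, with 1 higher and 2 lower. For XN1 against XN4, 2 of 9 were higher and 3 lower, and for CN4 against XN4, 3 of 10 were higher and 2 lower. Among genes captured in at least 1% of both lines, 2 of 7 were higher and 1 lower in XN1 against XN4. In CN4 against XN4, 2 of 9 such genes were higher and 2 lower. Over all genes considered, 16% were 2-fold apart between CN4 and XN1, 32.7% between XN1 and XN4 (2532 higher and 1393 lower) and 36.5% between CN4 and XN4 (2839 higher and 1552 lower). In KN1 against XN1 at equal genes per cell, 6 of 9 pathway genes were higher and 1 lower, with a median log2 ratio of 1.49 beside 0.21 over all genes, of which 45.6% were 2-fold apart. *Gli2* and *Hhip* were considered only through KN1, and of the other 7 genes 4 were higher and 1 lower, with a median of 1.08. Against CN4, 3 of 9 were higher and none lower, with a median of 0.37 beside 0.16 and 39.4% of all genes apart. Of the 8 genes captured in at least 1% of both KN1 and CN4, 2 were higher and none lower, with a median of 0.32. At equal reads, 2 of 9 were higher and 1 lower in KN1 against XN1, where 65.6% of all genes were apart, and 1 of 9 was higher and 5 lower against CN4, where 67% were apart. Of the 8 genes captured in at least 1% of both KN1 and XN1 at equal reads, 1 was higher and 1 lower. Of other domain factors, *Dbx2* was captured in 13.3% of CN4 and 1.84% of XN1 cells at equal depth, *Irx3* in 6.34% and 14.5% and *Pax6* in 11% and 11.1%. *Nkx2-9* and *Olig3* were each found in at most 8 cells of a line.

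Whether members were captured in the same cells was described by the ratio of observed to expected cocapture, with the expected number added up over 20 strata of similar total reads. A ratio of 1 means cocapture as often as the 2 fractions and depth give. Where either gene of a pair is captured in most cells, as *Olig1* and *Olig2* are in XN1 and CN4, the ratio has a ceiling little above 1. Ratios with either *Olig* gene in those lines are thus not comparable with KN1. *Olig1* and *Olig2* were found together at a ratio of 1.02 in XN1 (1.00 to 1.04), 1.04 in CN4 (1.03 to 1.06) and 1.12 in KN1 (1.01 to 1.25). The interval of KN1 held 1 with strata of genes detected, where the ratio was 1.10 (0.987 to 1.22). Cells with neither gene show the same excess from the other side, on a smaller expected number, and are no separate evidence. XN1 held 509 of them (3.52%) where 283 were expected, a ratio of 1.80 (1.64 to 1.96), CN4 held 1012 (5.57%) where 394 were expected, a ratio of 2.57 (2.41 to 2.73), and KN1 held 2236 (56.3%), a ratio of 1.02 (0.977 to 1.06). The median depth of cells with neither gene was 4026 reads in XN1 and 6665 in CN4, beside 6280 and 9621.5 in cells with both. Across cells thinned to one depth, Spearman's rho between the *Olig1* and *Olig2* reads was 0.29 in 12594 XN1 cells, 0.06 in 3396 KN1 cells and 0.45 in 17614 CN4 cells, given as a description of cells that share a library.

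In CN4, *Olig2* was captured in 94.8% of the cells with *Nkx2-2* and 84.7% of the others, a ratio of 1.08 (1.04 to 1.13), and the ratio with *Olig1* was 1.06 (1.02 to 1.11). In the fewer CN4 cells of the normalized table the ratios were 1.10 (0.992 to 1.22) and 1.08 (0.970 to 1.19). In XN1 both ratios of *Nkx2-2* were 1.02. There were 1683 cells where 1644 were expected for *Olig1* (0.975 to 1.07), and 1646 where 1609 were expected for *Olig2* (0.974 to 1.07). Both *Olig* genes are captured in most XN1 cells, so these intervals are too wide to show that an excess is absent. Both are captured in most CN4 cells too, so the ratios of XN1 and CN4 are not comparable with those of KN1. In KN1, *Nkx2-2* occurred with *Olig1* in 37 cells where 23.1 were expected (1.60; 1.13 to 2.21; in thinned cells 1.68, 0.996 to 2.66) and with *Olig2* in 17 cells where 24.4 were expected (0.697; 0.406 to 1.12). *Foxa2* in CN4 had a ratio of 0.976 with *Olig1* and 0.982 with *Olig2* (0.919 to 1.05). The ratio with *Olig2* was 0.922 at 2 reads or more (0.822 to 1.03) and 0.939 in thinned cells (0.841 to 1.05). *Olig2* is captured in most CN4 cells, so these intervals are too wide to show that a shortfall is absent. *Foxa2* was found with *Nkx2-2* in 196 cells where 152 were expected, a ratio of 1.29 (1.12 to 1.49). The interval held 1 in thinned cells (1.27; 0.893 to 1.75) and in the cells of the normalized table (1.10; 0.706 to 1.64). *Nkx6-1* in KN1 had ratios of 0.828 with *Olig1* (0.594 to 1.12) and 1.06 with *Olig2* (0.796 to 1.37), both with intervals that held 1.

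**Figure D4:**
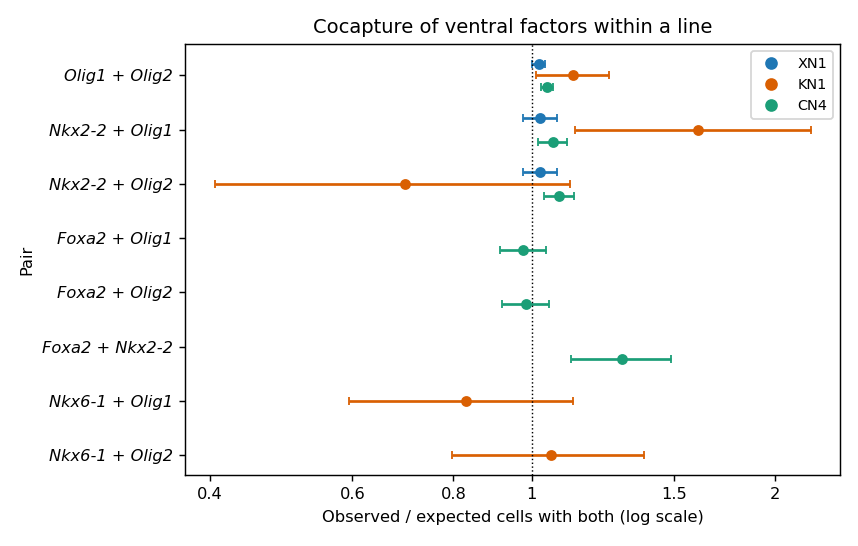
Ratio of observed to expected cocapture (log axis) for pairs of members in each line, with exact Poisson 95% intervals and a line at 1. The *Olig1* and *Olig2* pair sits close to 1 in each line. Every pair with an *Olig* gene has a ceiling little above 1 in XN1 and CN4. The *Nkx2-2* and *Foxa2* pair of CN4 sits at 1.29.

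*Shh* was the list gene found most often above its expected number with *Foxa2* in CN4. Both genes were captured in 214 cells where 31.9 were expected, a ratio of 6.71 (5.84 to 7.68), and the ratio was 13.2 in thinned cells (10.6 to 16.2) and 13.0 at 2 reads or more (10.6 to 15.7). *Shh* was found in 20.9% of the cells with *Foxa2* and 1.28% of the others, and *Foxa2* in 49.3% of the 434 cells with *Shh* (44.5 to 54.1) and 4.56% of the rest. The median depth was 11419 reads in cells with *Shh* and 9119 in cells without. Among 63 list genes other than members with enough cells, 12 intervals lay above 1, 16 lay below 1 and 35 held 1, and intervals were not adjusted for their number.

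Of the hedgehog genes, some targets of the signal lay above 1 with *Foxa2* and others below. The ratio was 1.29 for *Ptch1* (1.19 to 1.39) and 2.46 for *Gli1* (1.91 to 3.12). It was 1.21 for *Gli2* (0.998 to 1.45), 0.797 for *Gli3* and 0.747 for *Hhip*. The floor plate guidance genes *Ntn1* and *Spon1*, though captured in most cells of the line, had ratios of 1.18 and 1.10. Genes of more dorsal domains were below 1, with 0.704 for *Irx3*, 0.736 for *Irx5* and 0.847 for *Pax6*, while *Dbx2* was at 0.973. Among neural progenitor genes, *Sox1* was at 1.27, *Sox2* at 0.998, *Sox3* at 0.764 and the Notch target *Hes5* at 0.706. The endoderm factor *Gata6* was at 1.28 (0.553 to 2.53), an interval that held 1. The interneuron factor *En1* was at 1.40 and the neuronal gene *Dcx* at 1.58.

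**Figure D5:**
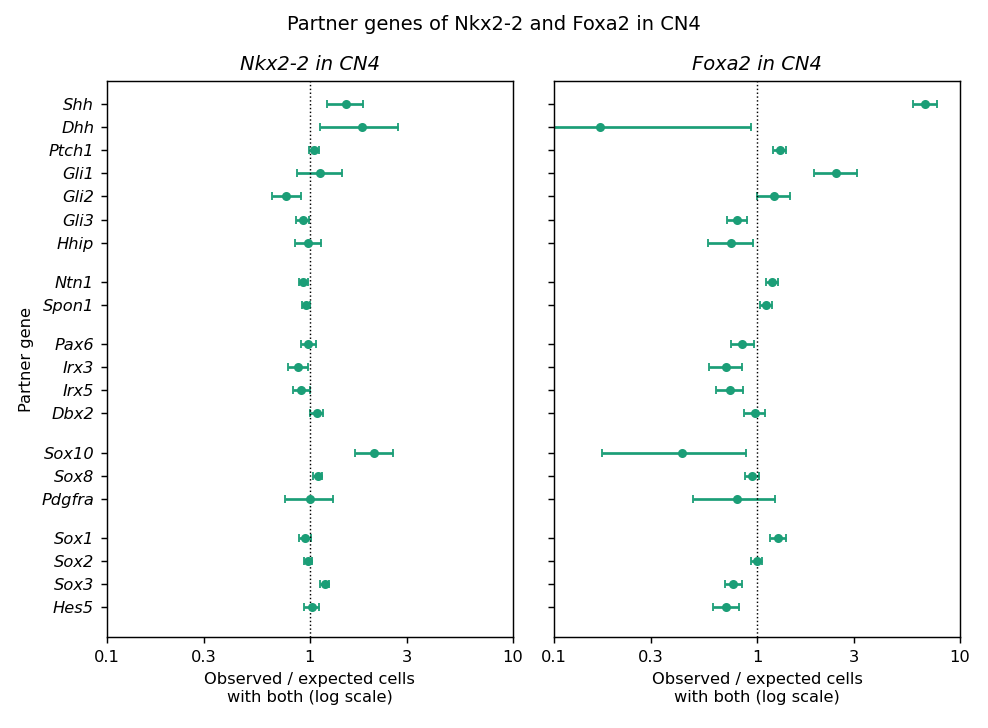
Ratio of observed to expected cocapture (log axis) of list genes with *Nkx2-2* (left) and *Foxa2* (right) in CN4 cells, with exact Poisson 95% intervals and a line at 1; the interval of *Dhh* with *Foxa2* runs past the axis. *Shh* with *Foxa2* stands farthest above 1, at 6.71, and *Sox10* with *Nkx2-2* is at 2.08.

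For *Nkx2-2* in CN4 the list genes were set out in the same way. *Sox10*, a factor of oligodendrocyte precursors, was captured in 374 CN4 cells (2.06%) and occurred with *Nkx2-2* in 87 where 41.8 were expected, a ratio of 2.08 (1.67 to 2.57), and with 2 reads or more of both genes in 11, where the interval held 1 (1.74; 0.867 to 3.11). With *Foxa2* it occurred in 7 cells where 16.4 were expected (0.427; 0.172 to 0.880), but the interval held 1 in thinned cells (0.30; 0.0363 to 1.08) and at 2 reads or more of *Sox10* (0.507; 0.138 to 1.30). *Pdgfra*, a precursor marker that mesenchyme also makes, was captured at equal depth in 32.8% of XN4, 6.93% of XN1 and 1.03% of CN4 cells, and its ratio with *Nkx2-2* in CN4 was 0.999 (0.751 to 1.30). *Olig1* was captured in 370 and *Olig2* in 367 of the 374 cells with *Sox10*, ratios of 1.16 (1.05 to 1.29) and 1.18 (1.06 to 1.31). In the fewer CN4 cells of the normalized table the ratios were 1.18 (0.919 to 1.49) and 1.21 (0.943 to 1.53). *Sox3* was at 1.18 with *Nkx2-2*, while the astrocyte water channel *Aqp4* was at 0.596. *Shh* was at 1.5 (1.21 to 1.83). Of 71 list genes, 10 intervals lay above 1 and 14 below.

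In XN1 the same list gave little. Of 50 genes, the interval of 1, *Sox3* at 1.11, lay above 1 and none lay below. *Sox10* was captured in 61 XN1 cells and was at 0.949 with *Nkx2-2* (0.382 to 1.96), an interval that held 1 and overlapped that of CN4. *Irx3* was at 0.998 and *Pax6* at 1.03. None of 28 list genes left 1 with *Nkx6-1* in KN1.

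Cells with reads of at least 2 of the division genes *Hmgb2*, *Mki67* and *Top2a* were set beside the others at one thinned depth. *Olig1* was captured in 74.0% of dividing and 85.1% of other XN1 cells (ratio 0.870), and in 71.8% and 79.0% in CN4 (0.909). *Olig2* was nearer to 1, with 0.973 in XN1 and 0.951 in CN4, and it was at 1.18 in KN1 (28.3% against 23.9%). Without thinning, within strata of reads, *Olig1* came to 0.938 in XN1 and 0.988 in CN4, nearer to 1 than after thinning. *Olig2* came to 1.01 in CN4 and 0.991 in KN1. The size of the *Olig1* ratio, and the direction of *Olig2* in CN4 and KN1, thus depended on how depth was treated. *Nkx2-2* was captured in 5.48% of dividing and 6.65% of other CN4 cells (0.823), and was at 0.993 in XN1. *Foxa2* in CN4 was at 0.897 and *Nkx6-1* in KN1 at 1.32, with intervals of the shares that overlapped.

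Genes most like each member were ranked by the same ratio among the genes captured in at least 5% of a line's cells. With *Foxa2* in CN4 these were *Tppp3* at 2.55, *Sod3* at 2.44, *Wif1* at 2.20, *Wipf3* at 2.14 and *Slc14a2* at 2.06, of 9976 genes. *Wif1* encodes a secreted Wnt inhibitor and *Sod3* an extracellular superoxide dismutase. At the other end were *Mme* at 0.478 and the Notch ligand *Dll1* at 0.485. With *Nkx2-2* in CN4 they were *Dll3* at 1.76 (1.57 to 1.96), a Notch pathway ligand, *Dcpp1* at 1.52, *Kcnd2* at 1.49, *B3gat2* at 1.47 and *Bmp7* at 1.44.

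*Dll3* was also first for *Olig1* (1.11) and *Olig2* (1.12) in CN4, followed by *Dll1* at 1.11 and 1.12. In XN1 the first for *Nkx2-2* were *Gba2* at 1.38 and *Sox13* at 1.28, of 9190 genes, and in CN4 these stood at 1.14 and 1.18. The first for *Olig1* in XN1 was the glial gene *S100b*, at 1.05 (0.997 to 1.11), with 1294 cells where 1228 were expected. As *Olig1* is captured in most XN1 cells, that interval is too wide to show that an excess is absent. In KN1 the first were *Dpm2* at 1.40 for *Olig1* and *Mrps23* at 1.34 for *Olig2*. Cells with neither *Olig1* nor *Olig2* were richest in *Fam167a* (3.24), *Tmtc4* (2.91) and the ephrin *Efnb2* (2.82) in CN4, and in *Dlc1* (2.26), *Il6ra* (2.08) and *C1s1* (1.98) in XN1. *Tppp3*, the first partner of *Foxa2*, was also among the CN4 genes of cells lacking both, at 2.70. Ranks of this kind pick the ends of many ratios and carry no test.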

How the data were processed

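Polyadenylated RNA of dissociated cells, stored in CellCover, was profiled on the BD Rhapsody platform, 1 library for each of 4 lines. The authors deposited read counts per gene and cell for XN4, XN1 and CN4, made with the BD Rhapsody WTA pipeline 1.12.1 on mm10 with intronic reads counted. For all 4 lines the authors deposited normalized values from Seurat 4.3.0, the natural log of 1 plus reads scaled to the cell total, without ribosomal protein and mitochondrial transcripts and for a random subset of cells. KN1 was analysed from the latter, turned back into whole reads, and settings for KN1 were taken to be those of the other lines. Reads are not unique molecules.

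Cells were thinned without replacement to 3600 reads (tables of all reads) or 3200 reads (normalized tables), leaving out shallower cells, 154 to 1858 and 288 to 773 per line. Genes were called at 2-fold in thinned capture, with fewer than 3 cells set to 3. Cocapture used 20 strata of reads and pairs expected in at least 5 cells. No doublet caller was run; an alternative left out the 5% of cells with most reads. Every member was named; other named genes came from fixed lists, or were the 5 with the highest cocapture ratio at 5% capture or more, with some of the lowest. Members and lists were chosen with earlier results of these data known. The count of all genes at equal genes per cell for KN1, thinned cells with strata and pooled levels from the normalized tables were added after seeing the data. Scripts were tested on simulated data. Python 3.11.15, numpy 2.4.6, pandas 2.3.3 and scipy 1.17.1 were used. A few genes of the lists are not reported here by name.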

Additional observations from a re-analysis of the deposited data

How the results depend on the processing

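No paired analysis was possible because each line had 1 library. With 1 library per line, spread between cultures was not measured. Alternatives were scoring at 2 reads, other cells, thinning, strata and folds; the cause of each shift was not tested unless it follows from the alternative. Capture of at least 1% was seen in 11 member and line pairs, and in 7 in the thinned tables of all reads, which do not hold KN1. At 4-fold, genes apart were 1819 (XN1 and XN4), 2008 (CN4 and XN4), 673 (CN4 and XN1), 3200 (KN1 and XN4), 3550 (KN1 and XN1) and 3223 (KN1 and CN4), and members apart fell to 2 of 4 in KN1 against XN1 (30.9% of all genes) and 2 of 5 in KN1 against CN4 (28.1%). Of these members, *Nkx6-1* was considered only through KN1 in both comparisons, and *Foxa2* only through CN4. Their directions were thus given by the choice of genes. With capture of at least 5%, genes apart were 2578 in XN1 against XN4 and 1040 in CN4 against XN1, where 0 members were apart because *Foxa2* did not reach 5%. In KN1 against XN4, 2 of 2 members were apart (66.7% of all genes), both considered only through KN1. In KN1 against CN4 it was 3 of 3 (70.7%), with *Nkx2-2* considered only through CN4. By pooled RPM, 4916 genes were apart in KN1 against XN4 and 4860 against CN4.

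*Foxa2* with *Shh* was 8.76 without strata, 13.0 at 2 reads, 13.2 thinned and 12.8 thinned with strata. *Nkx2-2* with *Foxa2* was 1.49 without strata, 1.66 at 2 reads and 1.10 in the cells of the normalized table. *Nkx2-2* with *Olig2* was 1.09 in XN1 at 2 reads, and in CN4 1.16 at 2 reads, 1.17 thinned and 1.16 thinned with strata. *Olig1* with *Olig2* was 1.06 in XN1 at 2 reads, 1.31 in KN1 without strata, and in CN4 1.10 at 2 reads, 1.10 thinned and 1.09 thinned with strata. Dividing over other cells, asking for all 3 genes, was 0.839 for *Olig1* in XN1, 0.881 for *Olig1*, 0.920 for *Olig2* and 0.904 for *Nkx2-2* in CN4, and 1.40 for *Olig2* in KN1. Without thinning it was 0.938 for *Olig1* and 0.997 for *Olig2* in XN1 and 0.988 for *Olig1* in CN4, and it turned for *Olig2* to 1.01 in CN4 and 0.991 in KN1. The ratio of XN1 over KN1 at equal genes and in pooled reads was 2.53 and 3.23 for *Olig1*, 2.08 and 2.25 for *Olig2* and 1.85 and 2.00 for *Nkx2-2*, and that of CN4 over KN1 was 2.30 and 2.88, 1.92 and 2.10, and 1.25 and 1.46. These pooled values divide KN1 by a total without ribosomal protein and mitochondrial reads; from normalized tables for both lines, an alternative chosen after seeing the data, XN1 over KN1 was 4.16, 2.87 and 2.44 and CN4 over KN1 was 4.00, 2.89 and 1.82. The other 117 alternatives of these comparisons stayed within 1.5 times for a count or within the interval for a ratio. Of the alternatives for capture fractions of single members, 86 moved and 47 did not, and of those for other pairs 5 moved and 75 did not.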
